A study of Mus musculus with 6 samples.

Results

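The VEGF ligands and receptors are described here across young and aged liver endothelial cells (ECs). The 10 genes were taken by name, whatever their values, from a table of 24421 genes. They are the ligand genes Vegfa, Vegfb, Vegfc, Figf (VEGF-D) and Pgf, the receptor genes Flt1 (VEGFR1), Kdr (VEGFR2) and Flt4 (VEGFR3), and the co-receptor genes Nrp1 and Nrp2. All 10 were measured in every sample and passed the filter on low counts. RNA-seq was performed on CD31+CD45- ECs sorted from the liver, a gate on an endothelial surface protein without the pan-leukocyte protein CD45. The young group consisted of 3 samples from 10-week-old mice, and the aged group of 1 sample each from mice of 127, 131 and 136 weeks. Every mouse was wild-type C57BL/6J, and only females were used in the study. Animals with gross lesions had been left out by the authors, without histology. RNA came from 50000 sorted cells per sample, and the sources used here do not say whether 1 liver or several gave these cells. The sample values below follow the order young replicates 1, 2 and 3, then 127, 131 and 136 weeks.

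VEGF-A binds the tyrosine kinase receptors VEGFR2, through which most of its mitogenic and survival signals pass, and VEGFR1, which binds it tightly but signals weakly and also exists as a secreted decoy. VEGF-B and placental growth factor (Pgf) bind VEGFR1, whereas VEGF-C and VEGF-D act mainly through VEGFR3, the receptor of lymphatic growth that liver sinusoidal ECs also carry. Neuropilins bind both VEGFs and class 3 semaphorins and have no kinase of their own. In the liver, VEGF-A is made mostly by hepatocytes and other non-endothelial cells and is needed to keep the fenestrated state of the sinusoids.

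Total counts ran from 23001556 to 31651817 per sample, so 3 counts stood for at most 0.130 CPM (the count after scaling each library to one total). All pan-endothelial markers, Pecam1 and Cdh5 among them, were present in every sample. Libraries stood apart in 2 respects. Lars2 and Rn45s, which collect ribosomal RNA reads, took 4.68% to 5.53% of counts in 4 samples but 1.29% and 0.960% in the remaining pair, young replicate 3 and the sample of 127 weeks. The 136-week sample had the highest summed CPM of macrophage, T and NK cell, neutrophil and lymphatic endothelial markers of the 6 samples. Its sums of pan-leukocyte, B and plasma cell, stellate and mural, cholangiocyte and large-vessel markers were also the highest. Its sums of sinusoidal and pan-endothelial markers were the lowest. Fold changes and ratios of the 10 genes that move by over 1.5 times without that sample are given with and without it.

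For the 4 genes whose aged and young levels did not overlap, Vegfa, Vegfb, Kdr and Nrp1, the 250 bases before the transcription start annotated by RefSeq in GRCm38.p6 are shown, since these are the genes the results below turn on. They lie at chr17:46032378-46032627 (minus strand), chr19:6987652-6987901 (minus), chr5:75978456-75978705 (minus) and chr8:128358823-128359072 (plus). Each is printed 5′ to 3′ along its gene, and capitals mark the GC box, GGGCGG on either strand.
Vegfa: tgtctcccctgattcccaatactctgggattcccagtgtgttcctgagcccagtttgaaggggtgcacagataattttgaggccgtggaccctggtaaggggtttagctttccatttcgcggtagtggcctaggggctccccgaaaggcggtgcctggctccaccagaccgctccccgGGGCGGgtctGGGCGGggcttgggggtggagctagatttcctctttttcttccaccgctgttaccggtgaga
Vegfb: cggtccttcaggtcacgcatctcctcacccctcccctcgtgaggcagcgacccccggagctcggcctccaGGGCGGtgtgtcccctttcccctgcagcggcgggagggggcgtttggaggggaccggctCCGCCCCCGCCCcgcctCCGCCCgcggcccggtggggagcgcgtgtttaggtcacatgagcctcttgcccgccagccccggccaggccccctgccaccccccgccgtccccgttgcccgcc
Kdr: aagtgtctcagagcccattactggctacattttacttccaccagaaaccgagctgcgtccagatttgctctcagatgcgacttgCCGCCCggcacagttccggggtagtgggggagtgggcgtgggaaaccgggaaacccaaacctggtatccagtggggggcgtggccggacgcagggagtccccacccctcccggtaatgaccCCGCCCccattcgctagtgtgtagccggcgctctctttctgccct
Nrp1: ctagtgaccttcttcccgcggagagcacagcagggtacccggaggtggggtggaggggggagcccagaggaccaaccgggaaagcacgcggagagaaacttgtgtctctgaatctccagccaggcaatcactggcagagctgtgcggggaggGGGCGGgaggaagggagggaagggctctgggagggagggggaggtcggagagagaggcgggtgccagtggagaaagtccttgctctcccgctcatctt
The GC box was found in 32.7% of the 32851 RefSeq promoter windows of this length. The window of Vegfa held 2 such boxes and that of Kdr also 2, while Nrp1 had 1 and Vegfb had 4. Of the other 6 genes only Figf had none in its first window, and its GC content of 42.4% was the lowest of the 10, against a median of 52.4% over all windows and 59.2% to 76.4% in the other 9 genes. The letters ACGTG, 1 form of the core of the hypoxia response element, occur in 16.6% of all windows and were absent from these 4. Other forms of this core, such as GCGTG, were not searched, so absence of the element is not shown. Bases further upstream were not searched. RefSeq gives Vegfa a second start within the gene, whose window at chr17:46025164-46025413 (minus strand) held 1 ACGTG core and 1 GC box. The AP-1 letters TGANTCA (6.75% of windows) and a narrow form of the NF-kB site (0.356%) were not found in the first window of any of the 10 genes. All motifs were searched on both strands. Other forms of the NF-kB site were not searched, so their absence from these windows is not shown. The genes themselves lie on mm9, the build of the deposited tables, at chr17:46153942-46169326 for Vegfa, chr19:7056963-7062141 for Vegfb, chr5:76328852-76374483 for Kdr and chr8:130882973-131029362 for Nrp1 in the GENCODE annotation. Of the 10 genes, only Nrp1 shared exonic bases with another annotated gene, 80 bases with Mir1903, or 1.35% of its exon length.

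Levels of different genes were compared as FPKM, which divides by gene length. In young ECs, the receptors stood far above the ligands. Kdr was the highest at 639.6 FPKM, followed by Nrp1 (361), Flt4 (274), Flt1 (81.2) and Nrp2 (66.5), as means of 3 samples. Vegfc was the highest ligand at 24.5 FPKM, above Vegfb (11.8), Vegfa (5.59), Pgf (2.75) and Figf (0.418). The sample ranges of neighbours in this order did not overlap, apart from those of Flt1 and Nrp2. In aged ECs the order of the receptors was the same by mean, but the range of Nrp1 now overlapped those of Kdr and Flt4, and Flt1 and Nrp2 overlapped again. Among the ligands, Vegfa moved above Vegfb by mean, with 17.7 FPKM against 15.1, and the ranges of Vegfc, Vegfa and Vegfb overlapped.

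**Figure D1:**
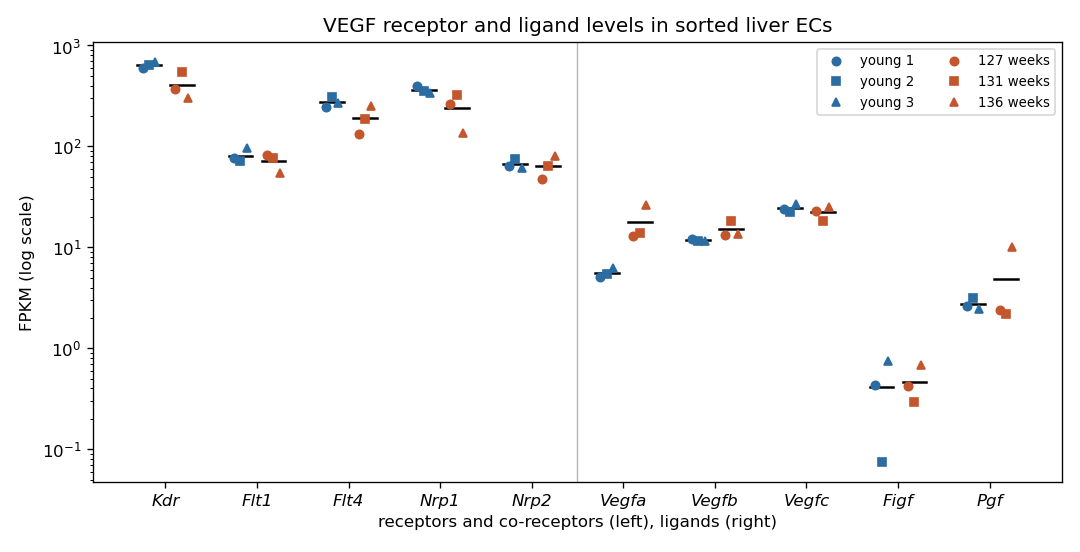
FPKM (log axis) of the 5 receptor and co-receptor genes and the 5 ligand genes in each sample, young in blue and aged in orange, with a bar at each group mean. All 3 aged points of Vegfa (13.1 to 26.3 FPKM) lie above the young points (5.11 to 6.23 FPKM), and all 3 aged points of Kdr (301 to 543 FPKM) lie below the young points (603 to 680 FPKM).

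Aged were compared with young samples with edgeR's quasi-likelihood test, with thresholds of 0.05 for the adjusted p and 1 for the absolute log2 fold change. Of the 10 genes 0 passed, as did 0% of the 14612 genes tested, among which the smallest adjusted p was 0.0735. At an unadjusted p below 0.05, 1 of the 10 was higher in aged ECs (Vegfa, against 8.32% of all genes) and 1 was lower (Kdr, against 4.32%). With DESeq2 at the same adjusted threshold, Vegfa was called higher, as were 2.83% of 13979 genes, and 0 of the 10 were called lower, against 0.565%. The CPM of the aged samples lay wholly above that of the young for Vegfa and Vegfb (9.62% of all genes) and wholly below for Kdr and Nrp1 (8.33%). In bulk RNA, fewer cells of a type and less RNA per cell cannot be told apart.

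**Figure D2:**
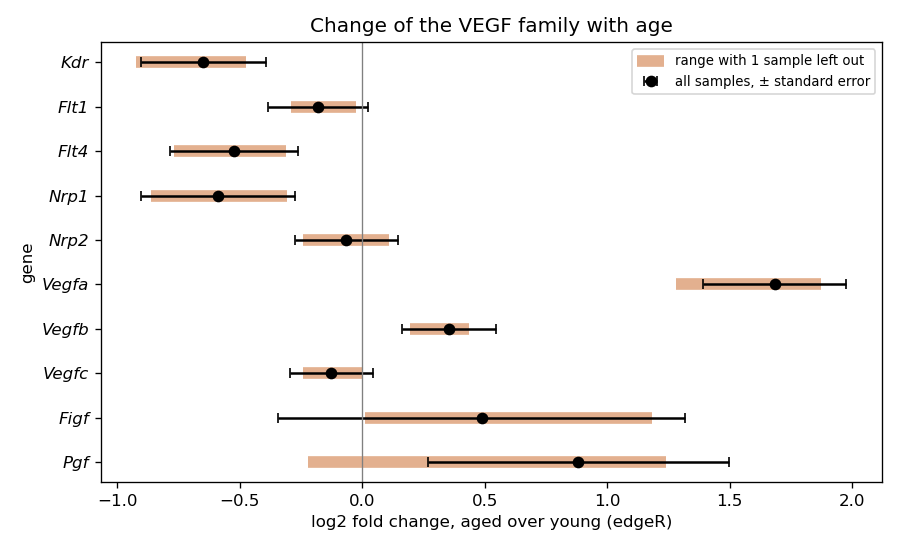
Log2 fold change of each gene in aged over young ECs (edgeR), as a point with its standard error, over an orange band that spans the values obtained when each of the 6 samples was left out in turn. The band of Vegfa (1.28 to 1.87) and that of Kdr (-0.92 to -0.48) keep clear of 0, whereas those of Nrp2, Vegfc and Pgf cross it.

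Vegfa, the ligand of VEGFR1 and VEGFR2, was the gene with the largest difference of the 10. Its CPM was 16.8, 18.3 and 20.0 in the young samples and 43.0, 46.1 and 88.0 in the aged samples. Every aged sample held more than every young sample by a wide margin, and the 136-week sample was the highest. These values rest on 405 to 634 counts in young and 1185 to 2167 counts in aged ECs. The log2 fold change was 1.68 (standard error 0.29, edgeR adjusted p = 0.191), while DESeq2 gave a log2 fold change of 1.68 with an adjusted p of 5.09e-05. Without the 136-week sample, it was 1.28 (edgeR adjusted p = 0.174). Over 15 alternatives the adjusted p ran from 5.09e-05 to 0.625.

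Vegfb, a ligand of VEGFR1 linked to fatty acid handling in ECs, had a CPM of 13.1, 12.4 and 12.5 in young and 14.4, 19.5 and 14.6 in aged ECs. The 131-week sample was the highest, and the other 2 aged samples lay only just above the young. The log2 fold change was 0.35 (standard error 0.19, edgeR adjusted p = 0.510), and 0.20 without the 131-week sample. Pgf, which also binds VEGFR1, had a CPM of 3.50, 4.56 and 3.22 in young and 3.40, 3.03 and 14.3 in aged ECs. Only the 136-week sample stood out, the 127-week sample lying within and the 131-week sample just below the young range. Its log2 fold change of 0.88 (standard error 0.61, edgeR adjusted p = 0.614) became -0.22 when that sample was left out.

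The ligands of VEGFR3 overlapped between the ages. Vegfc, the main lymphatic growth factor, had a CPM of 42.0, 38.9 and 46.1 in young and 39.8, 31.7 and 44.9 in aged ECs, a log2 fold change of -0.13 (standard error 0.17, edgeR adjusted p = 0.825), which was -0.24 without the 136-week sample and 0.00025 without the 131-week sample. The 131-week sample was the lowest of all, and the other 2 aged samples fell within the young range. Figf was close to the floor of detection, with counts of 14, 2 and 28 in young and 20, 12 and 24 in aged ECs, so that its log2 fold change of 0.49 had a standard error of 0.83. It was 0.19 without the 136-week sample, 0.012 without young replicate 2 and 1.18 without young replicate 3.

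The make-up of the ligand transcripts was compared as shares. Vegfa accounted for 11.6%, 12.7% and 13% of the summed FPKM of the 5 ligands in young ECs, and for 25.1%, 26.2% and 34.6% in aged ECs. The share of Vegfc was 54.4%, 52.4% and 56.1% in young and 44.1%, 34.4% and 33.3% in aged ECs. Neither gene's shares overlapped between the ages, Vegfa being higher and Vegfc lower in each aged sample. Shares add up to a fixed total, so a higher share of Vegfa lowers that of the other ligands together. The FPKM of Vegfc itself overlapped, at 22.3 to 27.0 in young and 18.1 to 25.4 in aged ECs. Young ECs had a summed ligand FPKM of 45.0 ± 2.83 and aged ECs one of 60.3 ± 13.8 (mean ± SD of 3 samples). The ratio of Vegfb to Vegfa was 2.35, 2.14 and 1.87 in young ECs and 1.01, 1.32 and 0.520 in aged ECs, so that each aged sample was below each young one. This difference of -1.25 in log2 had a p of 0.1 in a two-sided exact permutation test, the lowest value possible with 3 samples per group (adjusted p = 0.5 over 5 ratios).

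**Figure D3:**
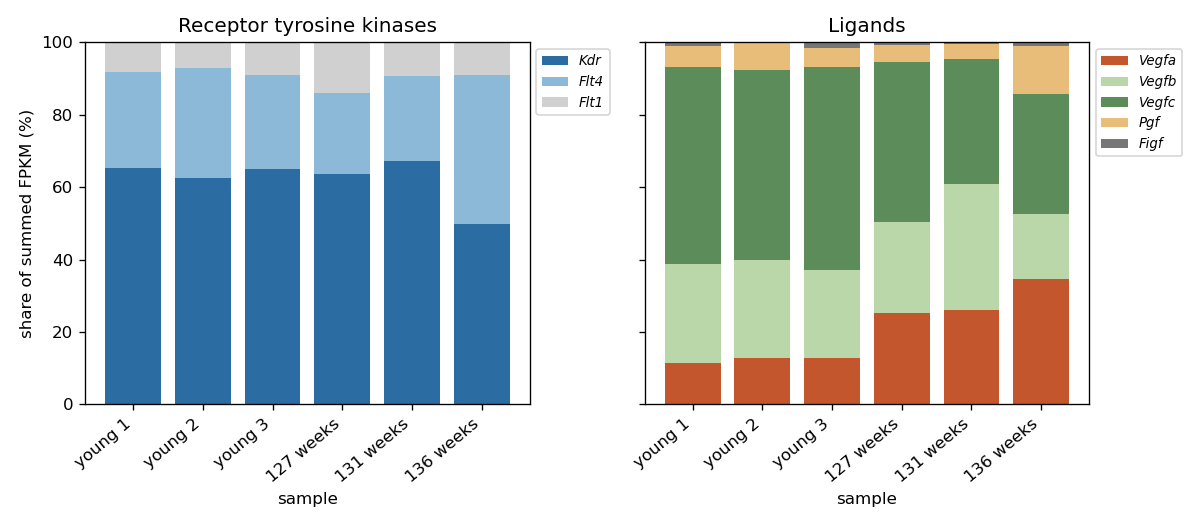
Share (%) of each gene in the summed FPKM of the 3 receptor tyrosine kinases (left) and of the 5 ligands (right), with 1 stacked bar per sample. The share of Vegfa is 11.6% to 13% in the young bars and 25.1% to 34.6% in the aged bars, and in the 136-week bar Kdr holds 49.8% of the receptor FPKM and Flt4 41.1%.

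Kdr encodes VEGFR2, the main signalling receptor for VEGF-A. Its CPM was 3329.8, 3508 and 3680.1 in young and 2031.5, 3008 and 1669 in aged ECs. All 3 aged samples were below the young ones, with the 131-week sample closest to them. The log2 fold change was -0.65 (standard error 0.25, edgeR adjusted p = 0.368), and it ran from -0.92 without the 131-week sample to -0.48 without the 136-week sample. DESeq2 gave an adjusted p of 0.120. None of 15 alternatives turned its direction, and the adjusted p stayed between 0.1 and 0.701.

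Flt4 encodes VEGFR3, the receptor for VEGF-C and VEGF-D. Its CPM was 1437, 1808.5 and 1544 in young and 763, 1107 and 1462 in aged ECs. The 127- and 131-week samples were below every young sample, but the 136-week sample lay within the young range. The log2 fold change was -0.52 (standard error 0.26, edgeR adjusted p = 0.466), or -0.77 without the 136-week sample and -0.31 without the 127-week sample. Leaving out either the 136-week sample or young replicate 1 removed the overlap between the ages.

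Flt1, the gene of VEGFR1, had a CPM of 498, 463 and 611 in young and 534, 494 and 359.9 in aged ECs. The ages overlapped, with young replicate 3 the highest and the 136-week sample the lowest. Its log2 fold change was -0.18 (standard error 0.20, edgeR adjusted p = 0.781), or -0.026 without the 136-week sample, -0.29 without the 127-week sample, and -0.054 without young replicate 3. Counts per gene do not separate the membrane receptor from the secreted form. Together, Flt1, Kdr and Flt4 gave a sum of 995 ± 62.2 FPKM in young ECs against 666 ± 123 FPKM in aged ECs (mean ± SD of 3 samples). Each aged sum (584 to 807.5 FPKM) was below each young sum (925 to 1044 FPKM).

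Within this sum, Kdr held 62.6% to 65.2% in young ECs, 63.5% and 67.3% in the 127- and 131-week samples and 49.8% in the 136-week sample. The ratio of Flt4 to Kdr was 0.407, 0.486 and 0.395 in young and 0.354, 0.347 and 0.826 in aged ECs. Only the 136-week sample exceeded the young range, and the other 2 aged samples were below it. The log2 difference of 0.13 (two-sided exact permutation test, p = 1) became -0.29 without that sample. The ratio of Flt1 to Kdr was 0.127, 0.113 and 0.140 in young and 0.220, 0.140 and 0.183 in aged ECs, a log2 difference of 0.49 (two-sided exact permutation test, p = 0.2, adjusted p = 0.5). The 131-week sample fell within the young range.

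Nrp1, a co-receptor that enhances the binding of VEGF-A to VEGFR2, had a CPM of 2343, 2084 and 1979 in young and 1542, 1909.7 and 809.9 in aged ECs. The aged samples were all below the young ones, the 131-week sample by a narrow margin and the 136-week sample by the most. Its log2 fold change was -0.59 (standard error 0.31, edgeR adjusted p = 0.5). Leaving out the 136-week sample gave -0.31, and leaving out the 131-week sample gave -0.86.

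Nrp2, which binds VEGF-C beside VEGFR3, had a CPM of 378, 449.6 and 374 in young and 287, 389.5 and 473 in aged ECs. The aged samples spread on both sides of the young range. The log2 fold change was -0.06 (standard error 0.21, edgeR adjusted p = 0.944), and it was 0.11 without the 127-week sample, 0.027 without young replicate 2 and -0.24 without the 136-week sample. Nrp1 exceeded Nrp2 by 6.18, 4.68 and 5.56 times in FPKM in young ECs and by 5.52, 5.02 and 1.67 times in aged ECs. Only the 136-week sample departed from the young range. The log2 difference was -0.60 (two-sided exact permutation test, p = 0.4, adjusted p = 0.667), and -0.047 without that sample. The ratio of Nrp1 to Kdr overlapped widely, with a log2 difference of 0.018 (two-sided exact permutation test, p = 1), or 0.19 without the 136-week sample.

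Within the 2 kinds of library told apart by their Lars2 and Rn45s counts, Vegfa was higher in aged ECs by 1.86 in log2 CPM among the 4 samples with many such counts and by 1.10 between the 2 with few. Kdr differed by -0.61 and -0.86, Nrp1 by -0.83 and -0.36, Flt4 by -0.34 and -1.02 and Vegfb by 0.41 and 0.21 in the same order. Nrp2 and Figf pointed in opposite directions between the library kinds, at 0.057 and -0.38 for Nrp2 and at 1.64 and -0.36 for Figf. The few-count kind had 1 sample of each age, so no spread can be given there.

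The level of Kdr was set beside markers of the endothelial types in the gate. The summed CPM of 12 sinusoidal markers was 21690 to 23240 in young ECs and 8610, 14850 and 7738 in aged ECs. For 10 of the 12, each aged sample was below each young one (8.33% of all genes). Clec4g was the highest of them, and Lyve1 and Gata4 were the 2 that overlapped. Kdr and this sum had the same order in the aged samples, 131 weeks above 127 above 136. The sum of 10 pan-endothelial markers was 12990 to 14480 in young and 10020 to 11990 in aged ECs, with 4 of the 10 lower without overlap. That of 15 large-vessel markers was 8097 to 11730 and 11060 to 12090, with 5 of the 15 higher without overlap (9.62% of all genes). These shares over all genes also stand for the marker lists below. The part of these markers in the differences of Kdr and Nrp1 was not tested.

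**Figure D4:**
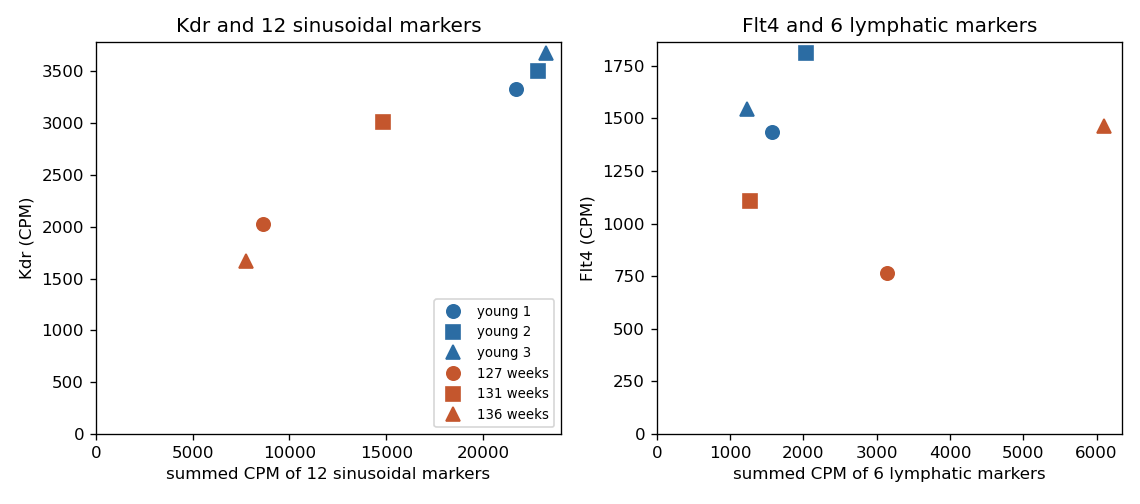
CPM of Kdr against the summed CPM of 12 sinusoidal markers (left) and CPM of Flt4 against that of 6 lymphatic markers (right), with 1 point per sample, young in blue and aged in orange. The aged points of Kdr lie left of and below the young points, and the 136-week point of Flt4 lies at the far right, at a lymphatic sum of 6103.

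Flt4 was set beside 6 lymphatic endothelial markers, whose summed CPM was 1238 to 2032 in young ECs and 3139, 1267 and 6103 in aged ECs. None of the 6 was without overlap between the ages. Mmrn1 was the highest, Lyve1 is also a sinusoidal marker, and Ccl21a was at 0 in every sample. Prox1, the lymphatic regulator, had a CPM of 27.1, 34.1 and 16.1 in young and 68.2, 26.3 and 159 in aged ECs. The 136-week sample thus held both the highest lymphatic sum and the highest Flt4 of the aged samples, but the 127-week sample, with the second lymphatic sum, had the lowest Flt4. The part of lymphatic ECs in the level of Flt4 was not tested.

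Vegfa was set beside markers of other liver cells. The gate on CD45 is meant to remove the leukocytes among them. The 12 macrophage markers measured summed to a CPM of 128 to 142 in young ECs and 242, 40.8 and 557.5 in aged ECs, with Lyz2 the highest and 0 of 12 free of overlap. In the 131-week sample this sum was below that of every young sample while Vegfa stood at 46.1 CPM, above every young sample. The 15 hepatocyte markers summed to 179 to 242 in young and 113 to 128 in aged ECs, 6 of them lower without overlap, with Alb the highest. Cholangiocyte markers summed to 90.9 to 121 in young and 200.2 to 250.1 in aged ECs, and 4 of the 8 were higher without overlap, mostly through Spp1. Krt19, which defines biliary cells, overlapped between the ages. The 16 stellate and mural markers overlapped in sum, at 186 to 570 and 293 to 819, with 1 of 16 lower without overlap. This was Lrat, at 4.511 to 23.55 CPM in young and 1.672 to 4.182 CPM in aged ECs. Reln, which is also on the lymphatic list, was the highest of them. The T and NK cell markers summed to 9.04 to 12.6 in young and 27.3, 10.7 and 64.6 in aged ECs, with 1 of 12 higher without overlap, and the neutrophil markers to 3.69 to 7.14 and 12.5, 6.88 and 55.0, with 2 of 8. Pan-leukocyte markers summed to 449 to 475 in young and 334, 374 and 586 in aged ECs, with 1 of 12 higher and 1 lower without overlap. Arhgdib was the highest of them and the lower one, at 321 to 346 CPM in young and 188 to 250.5 CPM in aged ECs. Ptprc, the gene of CD45, had a CPM of 1.56, 1.17 and 1.70 in young and 7.56, 1.28 and 25.6 in aged ECs. B and plasma cell, platelet and erythroid markers overlapped in sum between the ages, and Pax5, Hbb-b1, Hbb-b2, Hba-a1 and Hba-a2 were at 0 in every sample. The part of macrophage, cholangiocyte, T and NK cell or neutrophil RNA in the level of Vegfa was not tested.

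Genes whose log2(CPM + 1) followed that of Kdr and Vegfa most closely over the 6 samples were picked out of 10215 genes with a mean CPM of at least 5. The sample points share their libraries and depth, and the coefficients are descriptions only. For Kdr, these included Ap1b1, a subunit of a clathrin adaptor (Pearson's r = 0.998), and the cannabinoid receptor gene Cnr2 (0.997). Cnr2 had a CPM of 266, 276 and 305 in young and 113, 234 and 90.8 in aged ECs. For Vegfa, they included Gem, a small GTP-binding protein of the Rad family (0.998), and the ETS-family repressor gene Erf (0.995). Gem had a CPM of 40.1, 39.1 and 42.7 in young and 116, 126 and 262 in aged ECs, with the same order of the aged samples as Vegfa.

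A list of 33 genes that VEGF is known to induce in ECs, or that mark tip cells, had log2 fold changes above 0 for 28 of its members. At an unadjusted p below 0.05 in edgeR, 19 of 33 were higher (8.32% of all genes) and 0 lower (4.32%), and 17 were higher without overlap (9.62%). The median log2 fold change was 0.89, against 0.0098 over all genes tested, and 0.46 without the 136-week sample, which had the highest CPM of the 6 samples for 28 of the 33. Without that sample 13 genes stayed higher at that p, against 5.10% of all genes, and over all samples left out in turn the count ran from 13 to 20. DESeq2 called 10 of the 33 higher (2.83% of all genes) and 0 lower (0.565%). These shares over all genes also stand for the lists that follow.

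The 7 immediate early transcription factor genes Egr1, Egr2, Egr3, Nr4a1, Nr4a2, Nr4a3 and Fosb, which many stimuli induce, were all among the 19. So were 12 of the other 26, which were not checked for further genes that many stimuli induce. Egr2, a transcription factor of this kind, had a CPM of 38.8, 36.9 and 45.0 in young and 65.7, 77.3 and 85.1 in aged ECs, a log2 fold change of 0.92 (standard error 0.16, edgeR adjusted p = 0.184). Plat, the tissue plasminogen activator, had a CPM of 49.8, 39.9 and 41.2 in young and 114, 113 and 254 in aged ECs, a log2 fold change of 1.88 (standard error 0.34, edgeR adjusted p = 0.193). In both, each aged sample was above each young one. The genes with the smallest p in the lower direction were Hlx, a homeobox gene, and the laminin gene Lama4, with log2 fold changes of -0.70 and -0.23 and overlapping ages.

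**Figure D5:**
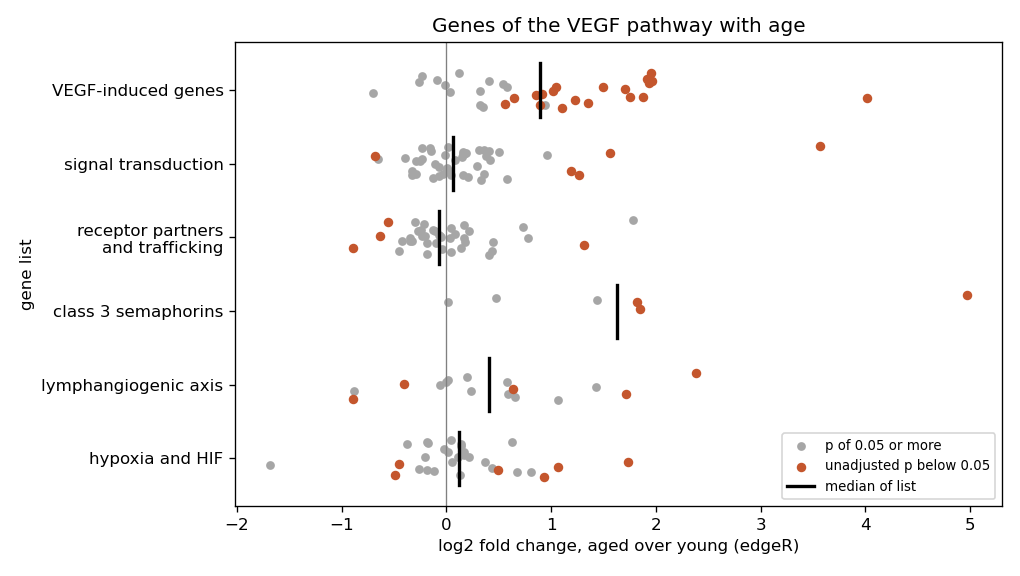
Log2 fold change in aged over young ECs (edgeR) of each tested gene in 6 lists around the VEGF pathway, with genes at an unadjusted p below 0.05 in orange and a bar at the median of the list. The medians are 0.89 for the VEGF-induced genes and 1.63 for the class 3 semaphorins, and lie between -0.07 and 0.41 in the other 4 lists.

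Of 46 genes that carry signals from the receptors, 4 were higher (8.32% of all genes) and 1 lower (4.32%) at an unadjusted p below 0.05, with a median log2 fold change of 0.066. The aged and young values of 8 did not overlap in the higher direction (9.62% of all genes), and of 2 in the lower (8.33%). The protein kinase C gene Prkcd had a log2 fold change of 1.19 and the sphingosine kinase gene Sphk1 one of 1.57, with CPM of 6.18 to 7.67 in young and 10.2 to 19.8 in aged ECs for Prkcd and of 1.89 to 4.06 and 5.37 to 13.9 for Sphk1. The Src family kinase genes Fyn and Yes1 had log2 fold changes of -0.68 and -0.29, with Fyn at 465 to 590.5 CPM in young and 245 to 397 CPM in aged ECs. The edgeR adjusted p of these 4 lay between 0.235 and 0.458. DESeq2 called 3 of the 46 higher and 0 lower.

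Among 39 partners and trafficking factors of the receptors, 1 was higher (8.32% of all genes) and 3 lower (4.32%) at that p, and 2 (9.62%) and 7 (8.33%) did not overlap. The median was -0.074, or -0.0099 without the 127-week sample and -0.12 without the 136-week sample. Itga9, an integrin subunit that binds VEGF-C, had a CPM of 424, 464 and 565 in young and 227, 311 and 245 in aged ECs, a log2 fold change of -0.89 (standard error 0.19, edgeR adjusted p = 0.209). Robo4, an endothelial receptor that restrains VEGF signalling, had a CPM of 974, 969 and 1124 in young and 606, 701 and 674 in aged ECs, a log2 fold change of -0.63 (standard error 0.16, edgeR adjusted p = 0.243). Each aged sample was below each young one for both. The phosphatase gene Ptprj had a log2 fold change of 1.32 without overlap, while Ptpn6, a phosphatase gene typical of blood cells, had 1.78 with the 131-week sample below every young one. DESeq2 called 1 of the 39 higher and 0 lower.

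Most products of the 7 class 3 semaphorin genes can compete with VEGF for the neuropilins. Of these genes, 6 were tested and 3 were higher (8.32% of all genes) at an unadjusted p below 0.05, with 0 lower (4.32%). The median log2 fold change was 1.63, but 0.40 without the 136-week sample, and DESeq2 called 0 of them. Sema3c had a CPM of 2.01, 0.948 and 1.32 in young and 2.2, 2.29 and 131 in aged ECs. Sema3a had a CPM of 11.8, 13.9 and 7.54 in young and 18.4, 11.4 and 90.1 in aged ECs. In both, the 136-week sample stood far above the rest. Sema3b and Sema3g were low, with their highest CPM in the 136-week sample too (5.12 and 22.4), and log2 fold changes of 1.82 and 1.44. Sema3d lay at 64.9 to 111 CPM in young and 115 to 143 CPM in aged ECs, without overlap, and had a log2 fold change of 0.47. Sema3f, the most abundant in CPM, was nearly level at 634 to 653 CPM in young and 650.2 to 665 CPM in aged ECs. Sema3e did not pass the filter on low counts.

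In a list of 16 genes of the lymphangiogenic axis, 3 were higher (8.32% of all genes) and 2 lower (4.32%) at an unadjusted p below 0.05. Likewise, 3 higher (9.62%) and 2 lower (8.33%) did not overlap, and the median was 0.41, or 0.050 without the 136-week sample and 0.25 without young replicate 3. Ccbe1, needed for the processing of VEGF-C, was low, with a CPM of 0.725 to 2.01 in young and 2.34, 14.2 and 4.39 in aged ECs. Gata2, an endothelial transcription factor, had a log2 fold change of 0.64, whereas Pcsk7, a proprotein convertase that cleaves VEGF-C, had -0.41 and Itga9 is given above. DESeq2 called 1 of the 16 higher. In 30 genes of hypoxia and HIF, 4 were higher (8.32% of all genes) and 2 lower (4.32%) at that p. Again 4 higher (9.62%) and 2 lower (8.33%) were free of overlap, and the median was 0.12. The glucose transporter gene Slc2a1 had a CPM of 17.2 to 26.0 in young and 56.3, 39.8 and 112 in aged ECs, a log2 fold change of 1.73 (edgeR adjusted p = 0.232). Egln3, a HIF prolyl hydroxylase, had a log2 fold change of 1.06. The collagen prolyl hydroxylase gene P4ha1 and the HIF inhibitor gene Hif1an had -0.49 and -0.45. Each of these 4 was without overlap, and DESeq2 called 2 of the 30 higher.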

How the data were processed

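Liver ECs were compared between 3 young and 3 aged samples. Per the labels, bases were called with CASAVA 1.8.2, and single-end reads of 75 bases were aligned to mm9 by the authors using TopHat2 2.1.0. The authors deposited raw whole-number counts for each gene symbol and FPKM values from Cuffnorm 2.2.1. The counting program, annotation and strand setting are not given in the sources used here, so overlapping genes are uncertain. CPM values were computed from the deposited counts with TMM factors. The 14612 genes that reached 0.5 CPM in 1 or more samples were tested with the quasi-likelihood test of edgeR 4.0.16 (R 4.3.3) with Benjamini-Hochberg adjustment. P-values measure only the spread between these samples, and floors cover counting error only, since reads carry no molecular identifiers. The 2 ages share no replicate numbers. Alternatives were DESeq2 1.42.0, other size factors and filters, limma-voom with quality weights and limma 3.58.1 on log2 FPKM (pseudocounts 0.1 and 1), a term for the library kind, the removal of Lars2 and Rn45s or of each sample, and other thresholds. Leave-one-out counts of VEGF-induced genes were added after seeing the data. Ratios were compared with exact permutation tests. Tests were tried on simulated counts. The 10 genes and all lists were chosen with earlier results of these data known. Named genes are the 10, the 2 genes per list with the smallest p in each direction, all class 3 semaphorins, the 3 genes most like Kdr and Vegfa (some of which are not reported here), and leading or absent markers. Protein sequences were not used here.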

Additional observations from a re-analysis of the deposited data

How the results depend on the processing

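No paired analysis was possible because the young and aged samples came from different mice. The number of the 10 genes called was 0 in each direction in edgeR. DESeq2 called 1 higher (Vegfa), and an unadjusted p below 0.05 gave 1 higher (Vegfa) and 1 lower (Kdr). The other alternatives called 0. Depth limits Figf, at 2 to 28 counts, which gave no value under a filter of 1 CPM in 3 samples. Vegfa and Vegfb stayed higher, and Kdr and Nrp1 lower, without overlap under other size factors, without Lars2 and Rn45s and in the deposited FPKM. Leaving out a sample can hardly create overlap, so those alternatives do not test this count. With single samples omitted, 2 to 3 genes were lower without overlap. The log2 fold change of Nrp2 turned to 0.027 without young replicate 2 and to 0.11 without the 127-week sample, that of Vegfc to 0.00025 without the 131-week sample and that of Pgf to -0.22 without the 136-week sample. With single samples omitted they ran from -0.24 to 0.11 for Nrp2, from -0.24 to 0.00025 for Vegfc and from -0.22 to 1.24 for Pgf. The log2 ratio of Flt4 to Kdr turned to -0.29 without the 136-week sample, and that of Nrp1 to Kdr to -0.071, -0.13 and -0.0036 without young replicate 3, the 127-week and the 131-week sample. Their highest values were 0.34 and 0.19. Leaving out samples in turn moved the median log2 fold change between 0.044 and 0.12 for signal transduction, between 0.40 and 2.02 for the class 3 semaphorins and between 0.034 and 0.16 for hypoxia. In each case the construction of the alternative was fewer samples. The cause of the difference between edgeR and DESeq2 was not tested.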
